A study of Mus musculus with 6 samples.

Results

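The 42 collagen chain genes measured in mouse cardiac fibroblasts and cardiomyocytes are described here. They are the genes whose platform symbol is Col, a number, the letter a and a number, out of 19505 named genes on the array, and each was read by 1 probe set. The RefSeq gene table holds 44 such symbols, and Col7a1 and Col12a1 were not analysed here. By class, 11 were fibrillar, 6 basement membrane, 6 beaded filament, 8 FACIT (fibril-associated collagens with interrupted triple helices), 3 short-chain network, 2 multiplexin and 4 transmembrane chains, and 2 belonged to other classes.

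Cardiac fibroblasts (CF) and cardiomyocytes (CM) were each kept for 48 h with what Ccrl2+ macrophages secrete, what Ccrl2- macrophages secrete, or PBS alone, and the PBS samples carry the title Sham. The macrophages were sorted from 6 pooled hearts of wild-type mice 1 week after TAC (transverse aortic constriction, a pressure overload of the heart), and the mice were C57BL/6N animals aged 15 to 16 weeks. Whether the CF and CM came from the same mice is not stated in the labels. The sample sources name a secretome, whereas the treatment protocol describes co-culture with the macrophages themselves, so whether macrophages were in the wells cannot be told from the labels. Each of the 6 groups is 1 array, which gives no measure of replicate spread, and no difference below was tested. Ccrl2 is an atypical chemokine receptor and was used here to sort the macrophages.

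Every collagen is a triple helix of 3 chains. The chains are made on the endoplasmic reticulum, hydroxylated on proline and lysine, folded, secreted, trimmed and cross-linked outside the cell. Fibrillar collagens form the tensile fibres of the heart's interstitium and are made there mainly by fibroblasts, which lay down more of them in pressure overload. Basement membrane collagens form the sheets around cardiomyocytes and vessels, beaded filament collagens link both networks, and FACIT collagens sit on the surface of fibrils.

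Values are log2 probe set signals, and differences are log2 differences, so that 1.00 is 2-fold. The median over all named values, 6.55, served as a floor and marks the dimmer side of the scale: a gene was counted in a comparison when its brighter array reached that floor, and a difference whose dimmer value lay below it is given as a lower bound measured against the floor, while calls at 2-fold and the plots use the values as measured. The floor does not show expression. Probe sets for negative controls had medians of 6.59 to 6.71 on the CF arrays and 6.20 to 6.26 on the CM arrays, and 95% of them lay below 10.6895 to 10.74 on the CF arrays and 10.1995 to 10.2495 on the CM arrays. Between 10 and 11 collagens lay above that 95% mark on each CF array, against 4 in CM with Ccrl2+ secretome, 7 in CM with Ccrl2- secretome and 4 in CM with PBS. In all, 29 of the 42 chains reached the floor on at least 1 array and 16 reached it on all 6. The other 13 lay between 3.36 and 6.28 throughout: Col2a1, Col5a3, Col6a4, Col6a5, Col9a1, Col9a2, Col10a1, Col17a1, Col19a1, Col24a1, Col25a1, Col26a1 and Col27a1. Levels of different genes come from different probe sets and are not set against each other.

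The labelled cell types were checked against marker lists. The 10 cardiomyocyte markers were all at least 2-fold lower in CF than in CM with PBS, with a median difference of -7.72. Of 9 fibroblast markers, 7 were higher in CF by 2-fold or more, and their list median was 2.44. Of all genes past the floor, 16.9% were lower and 13.9% higher by 2-fold or more. Fibroblast markers also had signal on the CM arrays: Dcn, a proteoglycan of fibroblasts, had 15.45, 15.67 and 15.34 in CM with Ccrl2+ secretome, Ccrl2- secretome and PBS. The summed fibroblast marker signal, as log2, was 19.45, 18.98 and 19.14 on the CF arrays with Ccrl2+ secretome, Ccrl2- secretome and PBS, against 18.10, 18.28 and 18.08 on the CM arrays in the same order. Vim, a filament protein of many cell types, makes up much of that sum, with 17.68 in CF and 17.72 in CM under PBS. Endothelial markers summed to 12.60, 11.92 and 12.58 on the CF arrays, against 17.39, 17.31 and 17.31 on the CM arrays. A sample description speaks of cardiac macrophages, and the macrophage list summed to 14.96, 15.66 and 14.38 on the CF arrays, against 13.87, 14.19 and 14.65 on the CM arrays. The CF sum with Ccrl2- secretome rests on Cybb, an oxidase subunit, at 14.77 against 11.13 with PBS. Of 11 macrophage markers 4 were higher there than with PBS by 2-fold or more and 5 lower, with a median of -0.44. Of all genes past the floor, 6.18% were higher and 4.83% lower in that comparison. In such bulk samples, more cells of a type and more RNA per cell cannot be told apart.

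**Figure D1:**
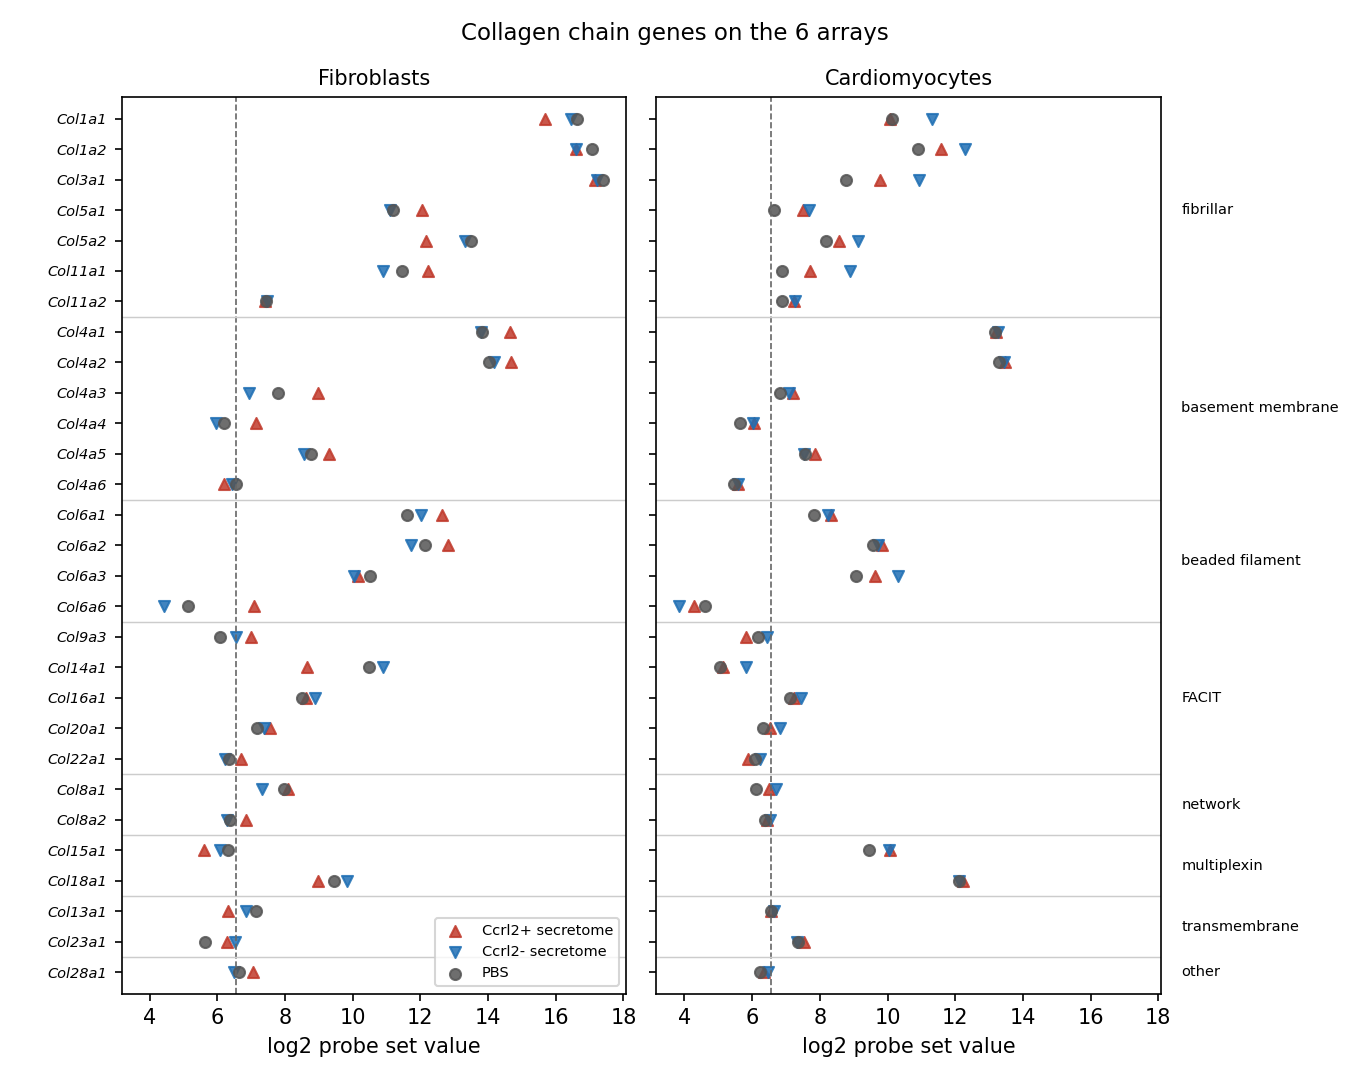
Log2 signal (horizontal axis) of the 29 collagen genes that reached the floor on at least 1 array (vertical axis, grouped by class), with the 3 CF arrays in the left panel and the 3 CM arrays in the right, upward triangles for Ccrl2+ secretome, downward triangles for Ccrl2- secretome and circles for PBS. The dashed line is the floor of 6.55. The fibrillar chains Col1a1, Col1a2 and Col3a1 lie at 15.69 or more on the CF arrays and at 12.28 or less on the CM arrays, whereas Col15a1 and Col18a1 lie further right on the CM arrays.

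Most fibrillar chains were far higher in fibroblasts than in cardiomyocytes. Of 24 collagens past the floor in the comparison of CF with CM under PBS, 14 were higher in CF by 2-fold or more and 3 lower, together 17, where 30.8% of all genes past the floor were called in either direction, 13.9% higher and 16.9% lower. The collagen median was 1.30, against 0.01 over all genes. Fibrillar chains had the widest gaps, with 6 of 7 past the floor higher in CF and a median of 5.30. Negative controls had a median difference of 0.55 in the same direction, and 30.6% of them also passed 2-fold. Of the 17, Col4a6 and Col23a1 fall short of 2-fold when their dimmer value is set to the floor.

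Col3a1, the single chain of the type III homotrimer that forms compliant fibres, had 17.40 in CF and 8.78 in CM with PBS, a 393.4-fold gap. Col1a1, the chain present in 2 copies in the type I trimer, had 16.63 in CF and 10.13 in CM with PBS, 90.5-fold apart. Col1a2, its partner chain, had 17.06 in CF and 10.91 in CM, 71.0-fold apart. The chains of types V and XI, which are buried in type I and type II fibrils and limit their width, had smaller gaps. Col5a2 had 13.49 in CF and 8.19 in CM, 39.4-fold apart. Col11a1 had 11.45 in CF and 6.89 in CM, 23.6-fold apart, and Col5a1 had 11.18 in CF and 6.65 in CM, 23.1-fold apart. Col11a2 stood apart from its class, with 7.45 in CF and 6.88 in CM, 0.57 apart, against the 0.55 of the negative controls.

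The beaded filament chains followed the fibrillar ones, with all 3 past the floor higher in CF by 2-fold or more. Col6a1 differed by 3.76, Col6a2 by 2.57 and Col6a3 by 1.46 under PBS, so the 3 partner chains of type VI microfibrils had unequal gaps. Col14a1, a FACIT chain that binds fibrils through decorin, had 10.47 in CF and 5.04 in CM, at least 15.1-fold higher. Col16a1, another FACIT chain, differed by 1.39, and Col8a1, a short-chain network collagen of vessels and remodelling tissue, had 7.98 in CF and 6.11 in CM, a difference of at least 1.43.

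Basement membrane chains had smaller gaps, with 5 of 5 past the floor higher in CF, 2 of them by 2-fold or more as measured, and a median of 0.96. Col4a1 and Col4a2, which form the common type IV trimer together, were 0.67 and 0.75 higher in CF than in CM with PBS, neither reaching 2-fold. Col4a3 was 0.96 higher and Col4a5 1.21 higher. With Ccrl2+ secretome 5 of 5 were higher in CF by 2-fold or more as measured, with a median of 1.44, where 13.4% of all genes were. Among these, Col4a4 was higher by at least 0.59 against the floor, short of 2-fold. With Ccrl2- secretome 1 of 4 was higher by 2-fold or more, where 12.3% of all genes were. The reverse direction was held by the multiplexins, basement membrane zone collagens whose C-terminal ends release endostatin or an endostatin-like fragment. Col15a1 had 6.33 in CF and 9.45 in CM with PBS, at least 7.46-fold lower in CF. Col18a1 had 9.45 in CF and 12.11 in CM, 6.32-fold lower in CF. The transmembrane chain Col23a1 had 5.64 in CF and 7.37 in CM, lower in CF by at least 0.82. The endothelial marker list ran the same way as these chains, with 8 of 9 members at least 2-fold lower in CF and a median of -5.15, and its part in their gap was not tested.

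**Figure D2:**
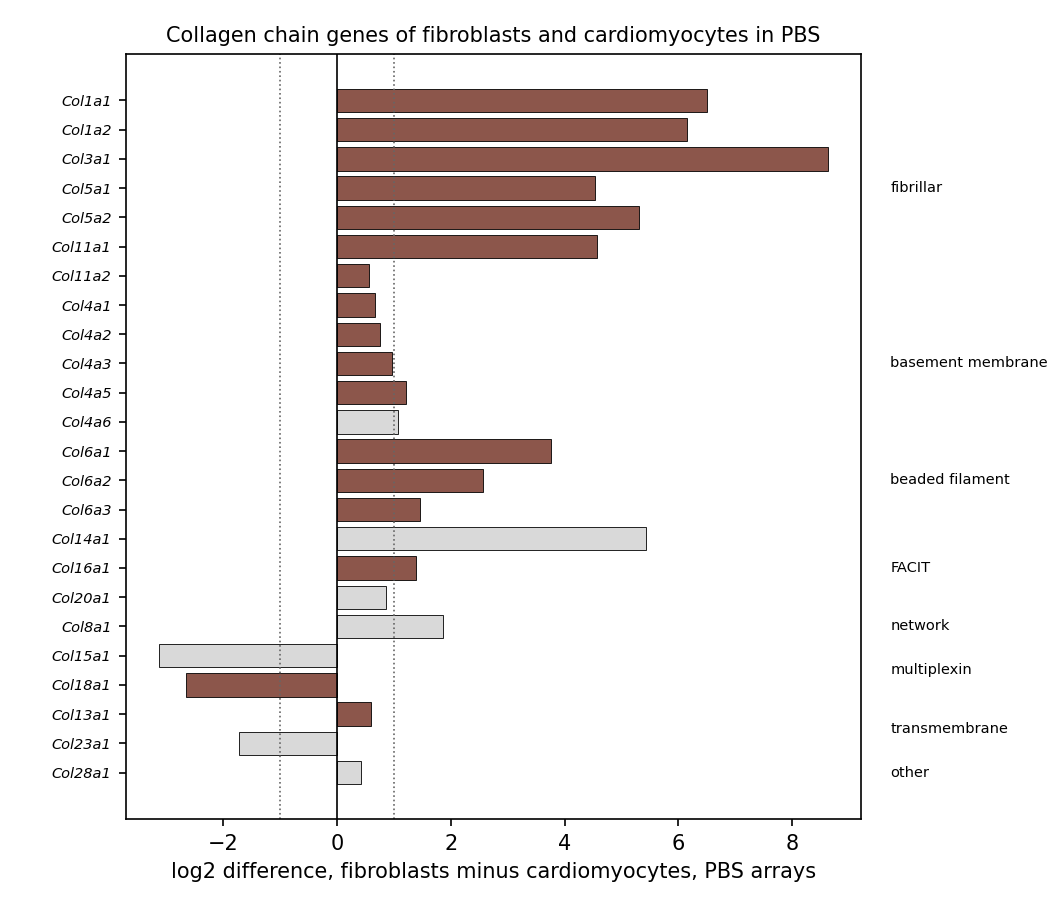
Log2 difference CF minus CM between the PBS arrays (horizontal axis), 1 bar for each of the 24 collagen genes past the floor, ordered by class on the vertical axis. Grey bars have their dimmer value below the floor, and dotted lines mark 2-fold in either direction. Col3a1 at 8.62 has the longest bar to the right, and Col15a1 at -3.12, Col18a1 at -2.66 and Col23a1 at -1.73 point left past 2-fold.

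With a secretome in place of PBS the gaps between the cell types were smaller for Col3a1, Col1a1 and Col1a2. The CF minus CM difference of Col3a1 was 7.38 with Ccrl2+ secretome, 6.29 with Ccrl2- secretome and 8.62 with PBS. For Col1a1 it was 5.62, 5.15 and 6.50 in the same conditions, and for Col1a2 5.02, 4.32 and 6.15. Col11a1 differed by 4.54 with Ccrl2+ secretome, 2.02 with Ccrl2- secretome and 4.56 with PBS, and Col5a1 by 4.54, 3.41 and 4.53 in the same order, so for these the Ccrl2+ gap equalled that with PBS within 0.02. Col6a3 differed by 0.52 with Ccrl2+ secretome, -0.27 with Ccrl2- secretome and 1.46 with PBS. The fibrillar median was 4.54 with Ccrl2+ secretome, 4.17 with Ccrl2- secretome and 5.30 with PBS. For Col15a1, which was lower in CF, the bound was -3.52 with Ccrl2+ secretome and -3.49 with Ccrl2- secretome, against -2.90 with PBS.

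In cardiomyocytes with Ccrl2- secretome, 6 collagens, 5 of them fibrillar, were among the few genes well above their PBS value. Of 21 collagens past the floor, 6 were 2-fold or more above PBS and 0 as far below, where 0.746% of all genes past the floor were higher, 0.786% lower and 1.53% called in either direction. The collagen median was 0.39, against -0.02 over all genes. The 5 fibrillar chains were Col3a1, Col11a1, Col1a2, Col1a1 and Col5a1, and the other was Col6a3, a beaded filament chain. No basement membrane, FACIT, multiplexin or transmembrane chain reached 2-fold. Negative controls past the floor reached 2-fold in 17.7% of cases in the same comparison. Col11a1 and Col5a1 lie below the 95% mark of the negative controls on every CM array, and Col3a1, Col1a1 and Col6a3 lie above it only with Ccrl2- secretome.

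Col3a1 had 9.77, 10.93 and 8.78 in CM with Ccrl2+ secretome, Ccrl2- secretome and PBS. The Ccrl2- value was 4.44-fold above PBS, and the Ccrl2+ value was 1.99-fold above it, just short of 2-fold. Col11a1, a type XI chain, had 7.70, 8.89 and 6.89 with Ccrl2+ secretome, Ccrl2- secretome and PBS, and the Ccrl2- array was 4-fold above PBS. In both genes the Ccrl2- array was highest, the Ccrl2+ array next and the PBS array lowest.

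Col1a2 had 11.58, 12.28 and 10.91 in CM with Ccrl2+ secretome, Ccrl2- secretome and PBS, 2.58-fold higher with Ccrl2- secretome than with PBS. In the same order Col1a1 had 10.07, 11.30 and 10.13, so that the Ccrl2- array stood alone at 2.25-fold above PBS while the Ccrl2+ array lay 0.06 below PBS. The type I partners thus differed from PBS by unequal amounts with Ccrl2+ secretome, Col1a1 by -0.06 and Col1a2 by 0.67. Col5a1, needed to start fibrils, had 7.51, 7.68 and 6.65 in that order, with the Ccrl2- array 2.04-fold above PBS and the Ccrl2+ array 0.86 above it. Col6a3, the largest chain of type VI and the source of the endotrophin fragment, had 9.63, 10.31 and 9.06 with the 3 media in that order, 2.38-fold higher with Ccrl2- secretome. Col5a2, just outside 2-fold, had 8.58, 9.14 and 8.19 likewise, differing from PBS by 0.95 with Ccrl2- secretome and by 0.39 with Ccrl2+ secretome.

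The common basement membrane chains and the multiplexins stayed within 0.62 of PBS in CM. Col4a1 had 13.19, 13.26 and 13.16 in CM with Ccrl2+ secretome, Ccrl2- secretome and PBS, and Col4a2 had 13.48, 13.44 and 13.28 in the same order. Col18a1 had 12.23 with Ccrl2+ secretome, 12.10 with Ccrl2- secretome and 12.11 with PBS. Col15a1 had 10.07 with Ccrl2+ and 10.04 with Ccrl2- secretome, against 9.45 with PBS, differences of 0.62 and 0.59. The basement membrane median was 0.24 with Ccrl2+ secretome and 0.13 with Ccrl2- secretome, against 0.67 and 1.17 for the fibrillar class.

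With Ccrl2+ secretome 0 of 19 collagens past the floor reached 2-fold in CM, where 0.839% of all genes did, 0.21% higher and 0.629% lower. The collagen median was 0.37, against -0.01 over all genes, and the range ran from -0.06 for Col1a1 to 0.99 for Col3a1. Col5a1 and Col11a1 followed at 0.86 and 0.81. Both secretome comparisons share the single PBS array, so a low or high reading there would enter both.

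The direct comparison of the secretomes does not use that array. It does reuse the single Ccrl2- array of the comparison with PBS, so a high reading there would enter both. In CM, 3 of 21 collagens were lower by 2-fold or more with Ccrl2+ than with Ccrl2- secretome and 0 higher, where 0.18% of all genes past the floor were lower, 0.13% higher and 0.31% called in either direction. Col1a1 had 10.07 with Ccrl2+ and 11.30 with Ccrl2- secretome, 2.35-fold lower with Ccrl2+. Col11a1 was 2.28-fold lower and Col3a1 2.23-fold lower. Col1a2, Col6a3 and Col5a2 differed by -0.70, -0.68 and -0.56, and the fibrillar median was -0.70, against 0.08 for the basement membrane class. The collagen median was -0.09 and the median over all genes 0.00.

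Fibroblast markers differed in the same direction on the CM arrays. With Ccrl2- secretome, 2 of 9 were above PBS by 2-fold or more as measured, where 0.746% of all genes were, Tcf21 at 7.52 against 6.20, which lies below the floor and gives at least 0.97, and Thy1 at 12.11 against 10.88, and the list's median was 0.56. With Ccrl2+ secretome 0 of 9 reached 2-fold, where 0.839% of all genes did, and the median was 0.35. Dpt, a matrix protein of fibroblasts, had 7.78, 8.20 and 7.23 with Ccrl2+ secretome, Ccrl2- secretome and PBS. All 5 epicardial and mesothelial markers past the floor were above PBS with Ccrl2- secretome, with a median of 0.66. Lrrn4 alone reached 2-fold, at 11.27 against 9.69 with PBS, where 0.746% of all genes were higher. With Ccrl2+ secretome 4 of 5 were above PBS, 0 by 2-fold, and the median was 0.09. Of 9 smooth muscle and pericyte markers past the floor, 2 were above PBS by 2-fold or more with Ccrl2- secretome, where 0.746% of all genes were. The list median was 0.44, with 7 above PBS and 2 below. With Ccrl2+ secretome 9 of 9 were above PBS, 0 by 2-fold, where 0.21% of all genes were, and the median was 0.27. Of 10 macrophage markers past the floor, 5 were lower by 2-fold or more with Ccrl2+ secretome than with PBS, where 0.629% of all genes were. The macrophage median was -0.80. With Ccrl2- secretome 0 reached 2-fold, where 1.53% of all genes did, and the median was -0.54. The part of these cells in the collagen values of the CM arrays was not tested.

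**Figure D3:**
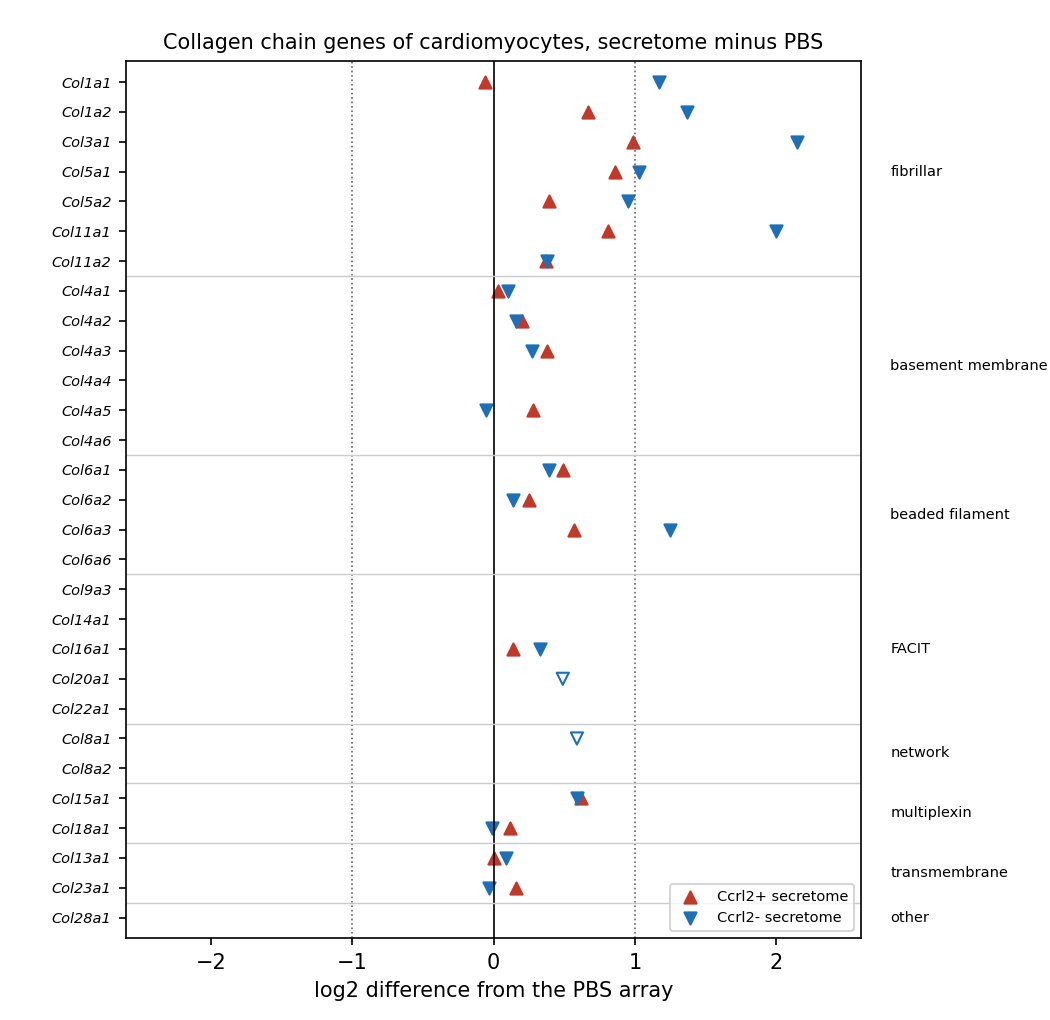
Log2 difference from the PBS array in cardiomyocytes (horizontal axis) for the collagen genes on the vertical axis, grouped by class, with upward triangles for Ccrl2+ secretome and downward triangles for Ccrl2- secretome. Open triangles have their dimmer value below the floor, genes past the floor on neither array of a pair have no triangle, and dotted lines mark 2-fold. Col3a1 at 2.15 and Col11a1 at 2.00 lead with Ccrl2- secretome, and no Ccrl2+ triangle passes the right dotted line.

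The sequences upstream of Col3a1 and Col1a2 are shown because both genes are among the 6 above PBS by 2-fold or more in CM with Ccrl2- secretome, and because each window ends at the outer start of its RefSeq gene with no other gene overlapping. Each is the 250 bases before the RefSeq start on the + strand of GRCm38.p6, 5′ to 3′, at chr1:45311288-45311537 for Col3a1 and chr6:4505368-4505617 for Col1a2. Capitals mark matches on either strand to 3 common promoter elements, and no matches overlap. These are CCAAT for the CCAAT box, GGGCGG for the core of the GC box, and TATAAA for the core of the TATA box.
Col3a1: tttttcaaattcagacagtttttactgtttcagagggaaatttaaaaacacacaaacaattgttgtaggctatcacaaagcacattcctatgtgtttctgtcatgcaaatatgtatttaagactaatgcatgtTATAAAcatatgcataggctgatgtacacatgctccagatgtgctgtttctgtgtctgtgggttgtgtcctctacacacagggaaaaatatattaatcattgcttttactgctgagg
Col1a2: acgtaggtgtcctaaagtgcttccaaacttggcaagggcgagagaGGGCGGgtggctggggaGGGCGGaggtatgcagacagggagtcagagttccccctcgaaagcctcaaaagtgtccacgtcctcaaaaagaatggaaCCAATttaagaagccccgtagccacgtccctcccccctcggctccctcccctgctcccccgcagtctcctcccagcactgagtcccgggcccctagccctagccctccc

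The windows differ in these motifs. Col3a1 holds TATAAA 117 to 112 bases before the start and neither of the others. Col1a2 holds CCAAT 109 to 105 bases before the start and GGGCGG at 205 to 200 and 188 to 183. Among 32851 promoter windows of the same length, each taken before a start in the promoter table made from RefSeq, 33.8% hold CCAAT, 32.7% GGGCGG and 12.4% TATAAA. Of 34 collagen genes with a window, 12 hold CCAAT, 20 hold GGGCGG and 5 hold TATAAA. A gene was counted when any of its windows held the motif, whereas the percentages count single windows. The gene counts and the percentages are therefore not set against each other. The matches describe the letters of these windows and are no evidence of binding.

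In fibroblasts the collagens differed in both directions with Ccrl2+ secretome. Of 27 past the floor, 3 were above PBS by 2-fold or more and 2 as far below, together 5, where 11% of all genes past the floor were called. By direction, 4.87% of all genes were higher and 6.13% lower. The collagen median was 0.38, against -0.07 over all genes, and 19.7% of negative controls passed 2-fold. With values raised to the floor, 2 were higher and 2 lower, without Col6a6.

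The 2 lower chains are parts of fibrils or bind to them. Col14a1, the FACIT chain, had 8.65, 10.89 and 10.47 in CF with Ccrl2+ secretome, Ccrl2- secretome and PBS, which is 3.53-fold lower with Ccrl2+ secretome than with PBS. Col5a2, the type V partner of Col5a1, had 12.16, 13.31 and 13.49 in that order, 2.51-fold lower. In both genes the Ccrl2+ array stood below the other arrays, which lay within 0.42 of each other. Col1a1 had 15.69 with Ccrl2+ secretome, 16.45 with Ccrl2- secretome and 16.63 with PBS, 1.92-fold lower with Ccrl2+ secretome than with PBS and just outside the threshold. In the same order Col1a2 had 16.60, 16.60 and 17.06, and Col3a1 had 17.15, 17.22 and 17.40, so PBS was highest for both with little between the secretomes.

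Among the fibrillar chains the type V and XI genes split. Col5a1 had 12.05, 11.09 and 11.18 in CF with Ccrl2+ secretome, Ccrl2- secretome and PBS, and Col11a1 had 12.24, 10.91 and 11.45 in the same order. With Ccrl2+ secretome, Col5a1 and Col11a1 thus differed from PBS by 0.87 and 0.79, against -1.33 for Col5a2. Col5a2 lies beside Col3a1 in the RefSeq gene order, and Col3a1 differed by -0.25. The fibrillar median was -0.25.

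Most basement membrane and beaded filament chains past the floor read higher with Ccrl2+ secretome than with PBS, 5 of 6 and 3 of 4. Col4a3, a chain of the type IV trimer of kidney and lung basement membranes, had 8.98, 6.95 and 7.79 in CF with Ccrl2+ secretome, Ccrl2- secretome and PBS, 2.28-fold higher than with PBS. Its neighbour in the gene order and trimer partner, Col4a4, had 7.14, 5.96 and 6.20 in that order, higher than PBS by at least 0.59. With the same 3 media Col4a1 had 14.64, 13.79 and 13.83 and Col4a2 had 14.67, 14.18 and 14.03, Ccrl2+ differences of 0.81 and 0.64 from PBS. The class median was 0.72 over 6 chains.

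Col6a1 had 12.65, 12.02 and 11.60 in CF with Ccrl2+ secretome, Ccrl2- secretome and PBS, 2.07-fold higher with Ccrl2+ secretome than with PBS, and Col6a2 had 12.83, 11.71 and 12.15, a Ccrl2+ minus PBS difference of 0.68. Col6a3, which assembles with both, had 10.15, 10.04 and 10.52 in that order, a Ccrl2+ minus PBS difference of -0.37. Col6a6, a type VI chain related to Col6a3, had 7.09, 4.44 and 5.13 in the same order, and its Ccrl2+ value differed by 1.96 from PBS, or by at least 0.54 against the floor. Col4a3 and Col6a6 both lie below the 95% mark of the negative controls on every CF array, and Col14a1 lies above it only with Ccrl2- secretome.

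With Ccrl2- secretome 0 of 23 collagens reached 2-fold in CF, where 11% of all genes past the floor did, 6.18% higher and 4.83% lower. Where both values passed the floor the differences from PBS ran from -0.84 for Col4a3 to 0.42 for Col14a1 and Col6a1. Col9a3, a FACIT chain of cartilage, had 6.56 with Ccrl2- secretome and 6.07 with PBS, a difference of at least 0.01, and the collagen median was -0.15, against -0.09 over all genes. Col8a1 differed by -0.65 and Col11a1 by -0.54. Col1a1, Col3a1 and Col5a2 each differed by -0.18.

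Set directly against Ccrl2- secretome, Ccrl2+ secretome gave 5 of 26 collagens higher in CF by 2-fold or more and 2 lower, together 7, where 18.6% of all genes were called in either direction, 8.55% higher and 10.1% lower. The collagen median was 0.485, against 0.00 over all genes. Col14a1 was 4.72-fold lower and Col5a2 2.22-fold lower. Col4a3 was 4.08-fold higher, Col11a1 2.51-fold higher and Col6a2 2.17-fold higher, and Col4a4 and Col6a6 passed the threshold as measured. Against the floor those 2 differ by at least 0.59 and 0.54, short of 2-fold, which leaves 3 higher and 2 lower. Col1a2 differed by 0.00. Col18a1 had 8.98 with Ccrl2+ and 9.82 with Ccrl2- secretome, a difference of -0.84.

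The remaining chains past the floor in CF were within 2-fold of PBS with either secretome. In CF with Ccrl2+ secretome, Ccrl2- secretome and PBS, the FACIT chain Col16a1 had 8.61, 8.89 and 8.50, and the FACIT chain Col20a1 had 7.56, 7.39 and 7.18. The short-chain network chain Col8a1 had 8.10, 7.33 and 7.98 in the same order, and its partner Col8a2 had 6.86, 6.29 and 6.38. The transmembrane chain Col13a1, found at cell junctions such as the neuromuscular synapse, had 6.31, 6.85 and 7.16 in that order, lower than PBS with Ccrl2+ secretome by at least 0.61. Col4a5 had 9.29 with Ccrl2+ secretome, 8.57 with Ccrl2- secretome and 8.78 with PBS. Col4a6, Col9a3, Col22a1 and Col28a1 lay between 6.07 and 7.05 on all 3 CF arrays, and none of the 10 reached 2-fold against PBS. In CM these chains and Col23a1 were likewise within 2-fold of PBS where they passed the floor.

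Summed markers of other cell types differed between the CF arrays. Schwann cell markers summed to 13.43 with Ccrl2+ secretome, 9.75 with Ccrl2- secretome and 11.32 with PBS, with Scn7a, a sodium channel, at 13.35 with Ccrl2+ secretome against 11.26 with PBS. Sox10, the factor that defines Schwann cells, had 3.90, 3.99 and 3.51, below the floor. Cdh19, another of the 4 markers on the array, had 9.10, 6.35 and 6.40 in the same order, with the last values below the floor. Of 2 markers past the floor, Scn7a and Cdh19, 2 were above PBS by 2-fold or more with Ccrl2+ secretome, where 4.87% of all genes were. In the same order cardiomyocyte markers summed to 17.10, 15.18 and 16.18. Tnnt2 alone, 1 of these markers, had 17.03, 15.08 and 16.12, and the list medians were 8.565, 7.18 and 7.775. With Ccrl2+ secretome 3 of 9 past the floor were above PBS by 2-fold or more, where 4.87% of all genes were. Fibroblast markers summed to 19.45, 18.98 and 19.14 in that order. With Ccrl2+ secretome 5 of 9 were above the Ccrl2- value by 2-fold or more, where 8.55% of all genes were, with a median of 1.00. Against PBS their medians were 0.23 with Ccrl2+ and -0.58 with Ccrl2- secretome. Of 6 smooth muscle and pericyte markers past the floor, 3 were lower than PBS by 2-fold or more with Ccrl2+ secretome and 1 higher. In that comparison 6.13% of all genes were lower and 4.87% higher. With Ccrl2- secretome 4 were lower, where 4.83% of all genes were. The list medians were -0.51 and -1.435. Of 8 epicardial and mesothelial markers, 4 were above the Ccrl2- value by 2-fold or more with Ccrl2+ secretome and 1 below. In that comparison 8.55% of all genes were higher and 10.1% lower. The endothelial medians against PBS were 0.24 with Ccrl2+ and -0.53 with Ccrl2- secretome. The part of these cells in the collagen values was not tested.

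**Figure D4:**
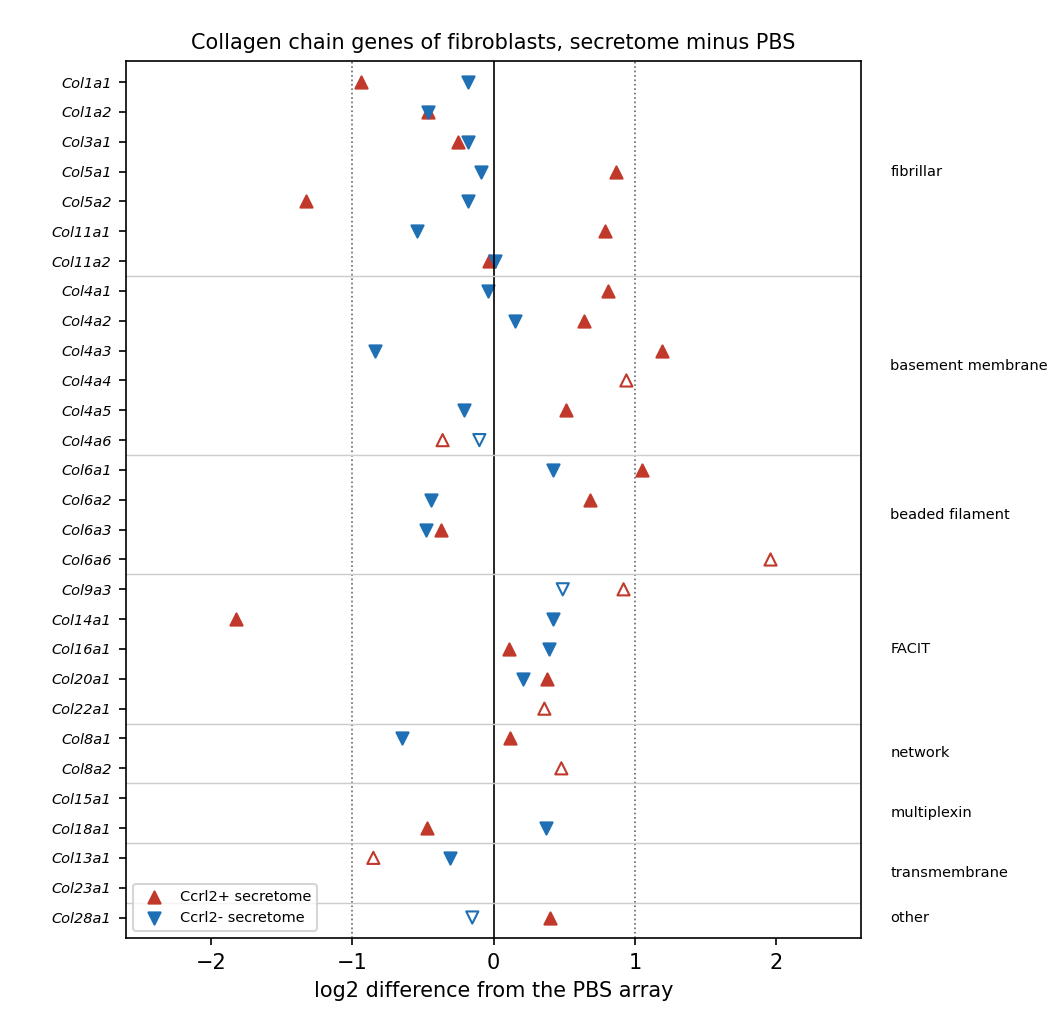
Log2 difference from the PBS array in cardiac fibroblasts (horizontal axis) for the collagen genes on the vertical axis, grouped by class, with upward triangles for Ccrl2+ secretome and downward triangles for Ccrl2- secretome. Open triangles have their dimmer value below the floor, genes past the floor on neither array of a pair have no triangle, and dotted lines mark 2-fold. Col14a1 at -1.82 and Col5a2 at -1.33 are farthest left with Ccrl2+ secretome, and no Ccrl2- triangle crosses a dotted line.

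The genes that build and handle collagen were read as lists. Of 14 hydroxylation and glycosylation genes, 13 were past the floor in CF, and 1 was lower by 2-fold or more with Ccrl2+ secretome than with PBS, P4ha3, a prolyl 4-hydroxylase subunit, at 9.21 against 10.21, where 6.13% of all genes were lower. With Ccrl2- secretome 1 was higher, P4ha2, another such subunit, at 13.15 against 9.89 with PBS, where 6.18% of all genes were higher. In CM 2 of 13 were higher with Ccrl2- secretome: P4ha3 at 8.57 against 7.51 with PBS and P3h4, a partner of lysyl hydroxylase, at 9.48 against 8.43, where 0.746% of all genes were higher. The list's CM median was 0.44 there and 0.15 with Ccrl2+ secretome.

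Of 12 folding and secretion genes, 2 were lower by 2-fold or more in CF with Ccrl2+ secretome than with PBS and 0 higher, where 6.13% of all genes were lower, with a list median of -0.60. Creb3l1, a transcription factor of the endoplasmic reticulum that drives type I collagen genes in bone, had 11.64 with Ccrl2+ secretome and 13.21 with PBS. Fkbp14, a prolyl isomerase, had 10.97 with Ccrl2+ secretome and 12.06 with PBS. With Ccrl2- secretome 0 of 12 reached 2-fold in CF, where 11% of all genes did, and the median was -0.19. The CM medians were 0.08 with Ccrl2+ and 0.17 with Ccrl2- secretome.

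Of the fibril assembly genes, Fmod, a small proteoglycan on fibrils, had 12.06, 12.60 and 13.80 in CF with Ccrl2+ secretome, Ccrl2- secretome and PBS. With Ccrl2+ secretome 1 of 11 past the floor was 2-fold or more below PBS and 1 above, where 11% of all genes were called. The higher gene was Tll1, a protease that removes propeptides, by at least 0.37. With Ccrl2- secretome 1 of 10 was higher in CF and 2 lower, where 11% of all genes were called. In CM 0 reached 2-fold with either secretome, where 0.839% of all genes did with Ccrl2+ and 1.53% with Ccrl2- secretome. None of 5 cross-linking enzymes reached 2-fold in any secretome comparison. Of all genes, 11% did in CF with either secretome against PBS and 18.6% between the secretomes. In CM 0.839% did with Ccrl2+ and 1.53% with Ccrl2- secretome against PBS, and 0.31% between the secretomes. The enzyme medians against PBS were -0.32 and -0.12 in CF and 0.15 and 0.58 in CM for Ccrl2+ and Ccrl2- secretome. Lox, which oxidises lysines for cross-links, had 14.62, 15.21 and 14.47 in CM with Ccrl2+ secretome, Ccrl2- secretome and PBS.

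Among collagen receptors, the integrin chain Itga11, which binds type I collagen, had 6.98, 8.00 and 9.54 in CF with Ccrl2+ secretome, Ccrl2- secretome and PBS. With Ccrl2+ secretome all 6 receptors past the floor were below their PBS value, Itga11 alone by 2-fold or more, where 6.13% of all genes were. With Ccrl2- secretome 1 of 7 was lower by 2-fold or more and 1 higher, where 11% of all genes were called. Itga2, another collagen-binding integrin chain, had 11.30 in CF with Ccrl2- secretome and 5.92 with PBS, higher by at least 4.75. In CM, Mrc2, an endocytic receptor for collagen, had 10.79 with Ccrl2- secretome and 9.55 with PBS, and was the 1 receptor of 6 at 2-fold, where 1.53% of all genes were called. Among 10 breakdown genes, the collagenase Mmp13 had 7.57 in CF with Ccrl2- secretome and 3.99 with PBS, higher by at least 1.02. Mmp8 had 6.87 in CF with Ccrl2+ secretome and 4.23 with PBS, higher by at least 0.32. Each was the 1 gene of 7 past the floor at 2-fold in its comparison, where 11% of all genes were called. No breakdown gene reached 2-fold in CM with either secretome, where 0.839% of all genes did with Ccrl2+ and 1.53% with Ccrl2- secretome.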

How the data were processed

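RNA from 6 cultures, 1 array per group, was hybridised to Affymetrix arrays after biotin labelling of 1 to 8 ug, per the labels' protocols. The authors deposited log2 signals, 1 per probe set. Per the submitters' processing notes they used Affymetrix Expression Console. No source used here gives its version, the way probes were summarised, the genome build or the annotation. Sorted values of the arrays differed by 0.0902 on average and 0.3 at most, so a shift of most genes one way would not show. With arrays of this kind, their number limits the precision.

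Of 28846 probe sets, 19572 had 1 symbol, and the other 9274, with no symbol or with several, were left out. For 55 symbols with several probe sets the one of highest mean was kept. All 42 collagen symbols matched RefSeq (GRCm38.p6). Pairs of arrays were subtracted. The members, lists and the naming rule (each list's 4 genes with the largest differences) were chosen with earlier results of these data known. Genes of other lists with values are markers that define their cell type, or were chosen after their values were seen. The latter holds for Cdh19, Cybb, Dpt, Lrrn4, Scn7a, Thy1, Tnnt2 and Vim. Subtraction and counting were tested on simulated data. Python 3.11.15, numpy 2.4.6, pandas 2.3.3, statsmodels 0.14.6 and matplotlib 3.10.9 were used. Alternatives were other floors and folds, quantile normalization, loess removal and probe set means.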

Additional observations from a re-analysis of the deposited data

Results flagged for a closer look

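In 7 cases a collagen lay on opposite sides of its PBS array in the cell types and reached 2-fold in 1 of them. Each value rests on 1 array against 1 PBS array, and the difference between the cell types was not tested. With Ccrl2- secretome minus PBS, Col3a1 differed by -0.18 in CF and 2.15 in CM, Col11a1 by -0.54 in CF and 2.00 in CM, and Col1a2 by -0.46 in CF and 1.37 in CM. Col6a3 differed by -0.48 in CF and 1.25 in CM, Col1a1 by -0.18 in CF and 1.17 in CM, and Col5a1 by -0.09 in CF and 1.03 in CM. With Ccrl2+ secretome minus PBS, Col5a2 differed by -1.33 in CF and 0.39 in CM. Several of the CF values are small, and no replicate shows whether their sign would recur.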

How the results depend on the processing

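No paired analysis was possible because each group held 1 array, and for the same reason no array could be left out. Medians were called moved past 0.1 on the log2 scale and counts past 1.5 times. Of 98 alternatives for medians and counts, 73 stayed within these limits, 25 moved and 0 reversed. Quantile normalization, loess removal and averaging of probe sets (each collagen has 1) moved none of them. With no floor 2 of 42 collagens reached 2-fold in CF Ccrl2- minus PBS, where 6.54% of all genes did. The collagen median with no floor was 0.19 for CF Ccrl2+ minus PBS, 0.30 for CF Ccrl2+ minus Ccrl2-, 0.135 for CM Ccrl2+ minus PBS, 0.255 for CM Ccrl2- minus PBS and 0.61 for CF minus CM in PBS. With the floor at the 75th percentile, 10.14, fewer and brighter genes entered, and the medians were 0.195, 0.30, 0.16, 1.17 and 4.53 in the same order of comparisons and -0.68 for CM Ccrl2+ minus Ccrl2-. The counts were then 3 for CF Ccrl2+ minus PBS, 4 for CF Ccrl2+ minus Ccrl2- and 11 for CF minus CM, where 9.97%, 19.4% and 32.5% of all genes passed. With values raised to the floor, the CF Ccrl2+ minus Ccrl2- median was 0.37. At 1.5-fold the counts were 14, 2 and 14 for CF Ccrl2+ minus PBS, CF Ccrl2- minus PBS and CF Ccrl2+ minus Ccrl2-, and 5 and 5 for CM Ccrl2+ minus PBS and CM Ccrl2+ minus Ccrl2-, where 26.4%, 25.5%, 37.5%, 5.44% and 4.71% of all genes passed. At 3-fold the counts were 2 for CF Ccrl2+ minus PBS, 3 for CF Ccrl2+ minus Ccrl2-, 2 for CM Ccrl2- minus PBS and 0 for CM Ccrl2+ minus Ccrl2-, where 4.25%, 8.46%, 0.189% and 0% of all genes passed. Floor and fold alternatives differ by construction in which genes they count. Of 114 alternatives for 38 single-gene results, 6 moved, all of Col23a1, Col4a4, Col4a6 or Col6a6, which lie near the floor.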
